A study of Homo sapiens with 6 samples.

Results

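Genes whose symbol is LINC followed by digits only were examined in NB4 cells treated with Tanshinone I (Tan I). LINC stands for long intergenic noncoding RNA, and the number is a placeholder symbol given to noncoding genes that had no better name. Of the 18625 genes in the deposited table, 279 carried such a symbol. The 224 with a mean of at least 10 normalized counts over the 6 libraries are the LINC RNAs described here, and 55 were below that mean. They were chosen by this mean over all libraries and by no other measured value. The difference between the groups was not used. The RNAs just above the limit were LINC02709 with a mean of 10.08, LINC02594 with 10.14 and LINC01300 with 10.15. Those just below it were LINC00562 with 9.92, LINC01139 with 9.84 and LINC00862 with 9.43.

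The study asked how Tan I, a lipid-soluble compound of Salvia miltiorrhiza, changed gene expression in leukemia cells. NB4 is a human acute promyelocytic leukemia cell line that carries the PML-RARA fusion. RNA-seq was performed on 3 libraries of NB4 cells given the solvent DMSO and on 3 libraries of NB4 cells given 10 μM Tan I, both for 3 days. Both groups were the same cell line in the same medium, so any result applies to 1 line. Nothing in the labels says whether the libraries came from separate cultures, and all p-values below therefore measure only the spread between these libraries, which may be technical.

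Long intergenic noncoding RNAs are transcribed by RNA polymerase II from promoters of their own, mostly between protein-coding genes. Like messenger RNAs they are capped, and most are spliced and polyadenylated, but they lack a long conserved reading frame. Many are made in few cell types and at low levels, and the nuclear exosome degrades some of them. Some act on the gene next to them, some bind protein complexes such as Polycomb repressive complex 2, and a few were later found to encode small peptides. For most genes with a LINC number the function is not known.

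In GENCODE release 44 on GRCh38, 223 of the 224 LINC RNAs were found by their gene identifier, LINC00618 being the exception, and 209 were annotated as lncRNA. For 20 of them this release had replaced the LINC symbol, in 9 cases by the name of a coding gene followed by DT, for divergent transcript. Another 11 were annotated as pseudogenes and 3 as protein-coding. The median gene spanned 19865 bp, the median of the joined exons was 3697 bp, and the main transcript had a median of 4 exons. They lay on 23 chromosomes, with the largest number, 32, on chromosome 1. The median distance from their start to the nearest protein-coding start was 37860 bp. Of the 224, 41 started within 5000 bp of a coding start, and 15 were divergent from a coding gene within 1000 bp. The exons of 100 overlapped exons of another gene, in 29 cases of a coding gene. The strand setting of the read counting is not given in the sources used here, so the counts of these 100 were uncertain. The 5 LINC RNAs below that passed the unadjusted test had no such overlap.

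The promoters of 4 of these 5 are printed because the comparison of the groups turns on these RNAs. The sequences are from RefSeq on GRCh38.p14, run 5′ to 3′ on the strand of the gene, and cover 250 bases before and 50 after the RefSeq start. Capitals mark matches to any of 6 short motifs searched on both strands. For these motifs, the core of the xenobiotic response element is GCGTG, the antioxidant response element is TGACNNNGC, the motif of the myeloid factor PU.1 is GAGGAA, that of RUNX proteins is TGTGGT, that of C/EBP proteins is TTGCNNAA, and the TATA box was searched as TATAAA. LINC00886 has chr3:156817013-156817312 on the minus strand, LINC02465 has chr4:129771369-129771668 on the plus strand, LINC01388 has chr9:113746-114045 on the minus strand and LINC02593 has chr1:919643-919942 on the minus strand. LINC01127 had no entry in the promoter table.
LINC00886: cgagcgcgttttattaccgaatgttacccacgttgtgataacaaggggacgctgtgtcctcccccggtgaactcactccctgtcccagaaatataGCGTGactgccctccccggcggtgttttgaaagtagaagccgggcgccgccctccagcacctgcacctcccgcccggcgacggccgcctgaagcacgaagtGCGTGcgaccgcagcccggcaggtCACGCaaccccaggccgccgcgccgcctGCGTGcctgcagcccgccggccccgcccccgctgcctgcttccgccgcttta
LINC02465: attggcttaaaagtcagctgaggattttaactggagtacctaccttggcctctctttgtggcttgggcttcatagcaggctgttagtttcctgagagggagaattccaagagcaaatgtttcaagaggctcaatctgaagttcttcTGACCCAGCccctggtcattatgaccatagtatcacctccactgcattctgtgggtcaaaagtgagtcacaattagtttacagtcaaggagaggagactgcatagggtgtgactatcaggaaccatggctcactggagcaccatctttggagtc
LINC01388: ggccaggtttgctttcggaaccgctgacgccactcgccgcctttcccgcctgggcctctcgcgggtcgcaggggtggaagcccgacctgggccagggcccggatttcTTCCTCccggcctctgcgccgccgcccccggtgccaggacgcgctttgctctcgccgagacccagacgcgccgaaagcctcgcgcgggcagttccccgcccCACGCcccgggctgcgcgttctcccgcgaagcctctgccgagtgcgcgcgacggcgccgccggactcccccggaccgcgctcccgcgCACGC
LINC02593: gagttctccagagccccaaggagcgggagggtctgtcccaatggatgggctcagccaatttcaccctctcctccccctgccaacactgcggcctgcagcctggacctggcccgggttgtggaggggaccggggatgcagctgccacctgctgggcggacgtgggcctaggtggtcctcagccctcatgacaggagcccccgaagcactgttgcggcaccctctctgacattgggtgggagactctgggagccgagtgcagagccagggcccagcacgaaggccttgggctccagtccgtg

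LINC00886 had 35 CpG dinucleotides in this window and LINC01388 had 47, against 11 in LINC02593 and 0 in LINC02465. The LINC00886 window held 4 matches to GCGTG, with first bases at −155, −54, −30 and −2 counted from the start site as 0. Of all 27305 promoters in the table, 435 (1.59%) held 4 or more. GCGTG contains a CpG, and all promoters had a median of 14 CpG dinucleotides. Promoters with as many CpG dinucleotides as that of LINC00886 were not counted apart. LINC01388 held 2 matches to GCGTG and 1 to GAGGAA, LINC02465 held 1 match to TGACNNNGC, and LINC02593 held none of the 6 motifs. The window of LINC02593 was centered on a RefSeq start that lay 1324 bp from the GENCODE start.

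A promoter was matched by symbol for 129 of the 224 LINC RNAs. Some of these windows lay far from the GENCODE start used for the positions above. The RefSeq start was 0 bp from it for LINC00886, 32263 bp for LINC01088 and 399688 bp for LINC01473. Windows at a distance were kept in the values that follow. These had a median of 11 CpG dinucleotides and a median GC content of 57.3%, against 14 and 58.3% for all promoters in the table. GCGTG was present in 31.0% of the 129 and in 36.3% of all promoters, and TGACNNNGC in 21.7% and 13.6%. The shares with GAGGAA were 27.1% and 27.6%, with TGTGGT 14.7% and 13.1%, with TTGCNNAA 10.9% and 10.6%, and with TATAAA 10.9% and 11.95%. Of the 129, 5 held 4 or more matches to GCGTG, namely LINC00886, LINC00685, LINC01560, LINC00237 and LINC02482. A match is a run of letters only, and binding was not measured.

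The libraries held 21502760 to 31679138 reads on the listed genes. They also differed along a gradient that did not follow treatment. In a principal component analysis of the genes tested, the first component took 70.8% of the variance, and DMSO 2 and Tan I 3 stood together at one end of it, with scores of 41.1 and 71.6, while DMSO 1 and Tan I 1 stood at the other with −48.0 and −46.8. Of the promyelocyte markers, 8 of 9 were in the table and 2 passed the unadjusted test, MPO (myeloperoxidase) and CTSG (cathepsin G), both lower in Tan I. The normalized counts of MPO were 60389, 64107 and 63267 in DMSO and 33279, 39450 and 37076 in Tan I. The summed promyelocyte markers ran from 72745 to 79624 in DMSO and from 43878 to 52827 in Tan I, and the part of this difference in the results below was not tested. Most of the sum was MPO. Without it the 7 others summed to 12356 to 15517 in DMSO and 10598 to 13836 in Tan I, which overlapped, and 3 of the 8 (SPI1, CEBPA and CD33) had log2 fold changes above 0, of 0.36, 0.11 and 0.07. The summed markers of other cells were below these sums in both groups. For T cells (3 of 3 listed) they were 320 to 479 in DMSO and 354 to 620 in Tan I. Most of this was CD3D, whose mean of 342 was above those of CEBPE (273) and CEBPA (249). In the same order, the sums were 170 to 179 and 159 to 172 for B cells (2 of 3), and 223 to 375 and 276 to 435 for epithelial cells (2 of 3). They were 74 to 120 and 65 to 112 for fibroblasts (1 of 2), and 15 to 51 and 11 to 28 for erythroid cells (1 of 4). None of the 3 megakaryocyte markers was in the table, and none of these other markers passed the unadjusted test. In bulk RNA, fewer cells of a type and less RNA per cell cannot be told apart.

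Most LINC RNAs were rare. In normalized counts, which are reads divided by the size factor of the library and are not corrected for length, 116 of the 224 had a mean from 10 to under 50, 45 from 50 to under 100, 50 from 100 to under 500 and 13 of 500 or more. The median mean was 45.5, against 332 for all 16887 genes tested. Per kilobase of joined exons the LINC RNAs had a median level of 14.4 normalized counts and the 12500 protein-coding genes tested a median level of 114. In every library, 173 LINC RNAs had 10 or more reads. LINC02211, with 0 reads in Tan I 3, was the only one with a library at 0.

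**Figure D1:**
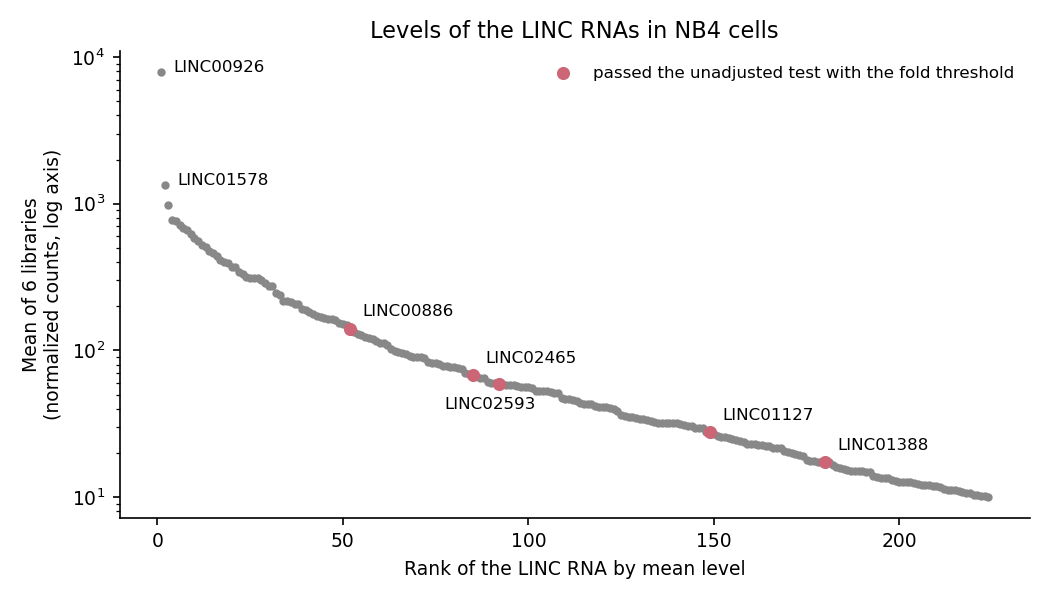
Each point is 1 of the 224 LINC RNAs, placed by its rank (horizontal axis) and its mean over 6 libraries in normalized counts (vertical axis, log scale). LINC00926 stands alone at 7903, and the 5 LINC RNAs that passed the unadjusted test (colored) are spread from LINC00886, with a mean of 140, to LINC01388, with a mean of 17.3.

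LINC00926 gave 23.2% of all LINC counts. It had 7930, 8051 and 7178 normalized counts in the DMSO libraries and 7565, 8823 and 7869 in Tan I. The groups overlapped, and the log2 fold change, taken here and below as Tan I over DMSO, was 0.07 ± 0.12 (SE, n = 3 per group, limma unadjusted p = 0.598). This RNA lies at chr15:57300365-57307769 on the plus strand and has 3 exons. Its mean was 5.90-fold that of the next, LINC01578, and per kilobase its level was 2154 normalized counts. LINC00888 reached 2324 per kilobase over exons of only 421 bp, but this value is uncertain because its exons overlap those of a second gene record of the same name.

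LINC01578, which GENCODE now names CHASERR, is a conserved RNA known to hold down the expression of the chromatin remodeler gene CHD2 next to it. It had 1258, 1256 and 1161 normalized counts in the DMSO libraries and 1360, 1420 and 1584 in Tan I, so the groups did not overlap. The log2 fold change was 0.25 ± 0.11 (SE, limma unadjusted p = 0.0630, adjusted p = 0.999) and did not pass. Without Tan I 1 it did, at 0.29 (limma unadjusted p = 0.0495). Some of its exons overlap CHD2 exons on the same strand, so their reads may be shared, and CHD2 itself had a log2 fold change of 0.09.

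The other 8 of the 10 highest means belonged to LINC00888 (978), LINC02210 (773), LINC00174 (760), LINC02693 (721), LINC00342 (684), LINC01088 (666), LINC00426 (618) and LINC01238 (585), all in normalized counts. None of them passed the unadjusted test, and the groups overlapped for all 8. The largest difference in log2 value among them was that of LINC01088, which starts 47 bp from the coding gene PAQR3 on the opposite strand. It had 639, 955 and 673 normalized counts in the DMSO libraries and 491, 578 and 661 in Tan I, a log2 fold change of −0.38 ± 0.19 (SE, limma unadjusted p = 0.0904). The 10 together held 44.1% of all LINC counts.

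Summed over all 224, the LINC RNAs took 0.149%, 0.127% and 0.137% of the counts of DMSO 1, 2 and 3, and 0.146%, 0.137% and 0.113% of those of Tan I 1, 2 and 3. The group values were 0.138% ± 0.0111 (SD, n = 3) in DMSO and 0.132% ± 0.0169 (SD, n = 3) in Tan I, and their ranges overlapped. The lowest share in each group was that of DMSO 2 and of Tan I 3. The absolute sums were alike, at 34163 ± 980 (SD) normalized counts in the DMSO libraries and 33987 ± 1387 in Tan I.

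As a class the LINC RNAs barely differed between Tan I and DMSO. Their median log2 fold change was −0.04, but 0.004 after quantile normalization and 0.02 without Tan I 3, with quartiles of −0.27 and 0.15, against a median of −0.002 for all genes tested, and 100 of the 224 (44.6%) lay above 0. For 125 of them the log2 fold change was under 0.25 in size, and 3 reached 1 or more. Antisense RNAs gave a similar picture, with a median of −0.05 over 386 genes. LINC RNAs between their own lower and upper quartile of mean level had a median of −0.08 (112 RNAs), and other genes in the same range of mean had −0.07 (3964 genes).

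**Figure D2:**
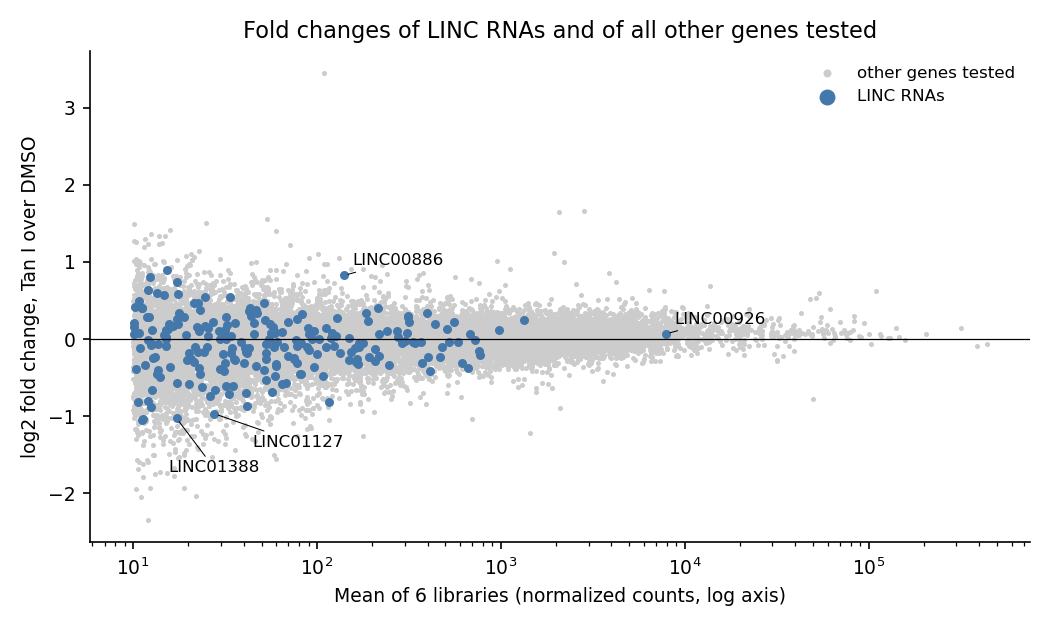
Each point is a gene tested, with its mean over 6 libraries in normalized counts on the horizontal axis (log scale) and its log2 fold change (Tan I over DMSO) on the vertical axis. The LINC RNAs (blue) lie among the other genes (grey) of like mean, with a median of −0.04, and LINC00886 is the highest of those with a mean above 100.

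By the study's thresholds, an unadjusted p (here from limma) up to 0.05 with a log2 fold change of 0.25 or more in size, 1 of the 224 LINC RNAs was higher in Tan I (0.446%) and 4 were lower (1.79%). Of all 16887 genes tested, 1.32% were higher and 1.10% were lower by the same thresholds. The shares of the LINC RNAs rest on 5 genes and are near this background. After Benjamini-Hochberg adjustment over all genes tested, limma passed 0 LINC RNAs and 0% of all genes, where 5 LINC RNAs had an unadjusted p of at most 0.05. On the reads recovered from the deposited values, edgeR's quasi-likelihood test called 4 LINC RNAs by the unadjusted thresholds and DESeq2 called 3, against 2.42% and 2.49% of all genes tested. After adjustment neither passed a LINC RNA, while DESeq2 passed 16 genes in all and edgeR 0. DESeq2 gave no adjusted p for 100 of the 224. The count of 5 was 1 without DMSO 1 (1.07% of all genes tested passed in that fit), 1 without Tan I 2 (0.947% of all genes), 2 without DMSO 3 (1.19%), 8 without DMSO 2 (2.76%) and 19 without Tan I 1 (8.86%). It was 27 (12.1%) in a fit with the first component's score as a covariate, where 8.86% of all genes passed, and after quantile normalization it was 2 higher and 3 lower.

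The 3 Tan I values all lay above the 3 DMSO values for 11 LINC RNAs (4.91%) and all below for 10 (4.46%). Over all genes tested these shares were 3.92% and 3.97%. For any single gene the exact two-sided permutation test over 3 against 3 libraries cannot go below p = 0.1.

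**Figure D3:**
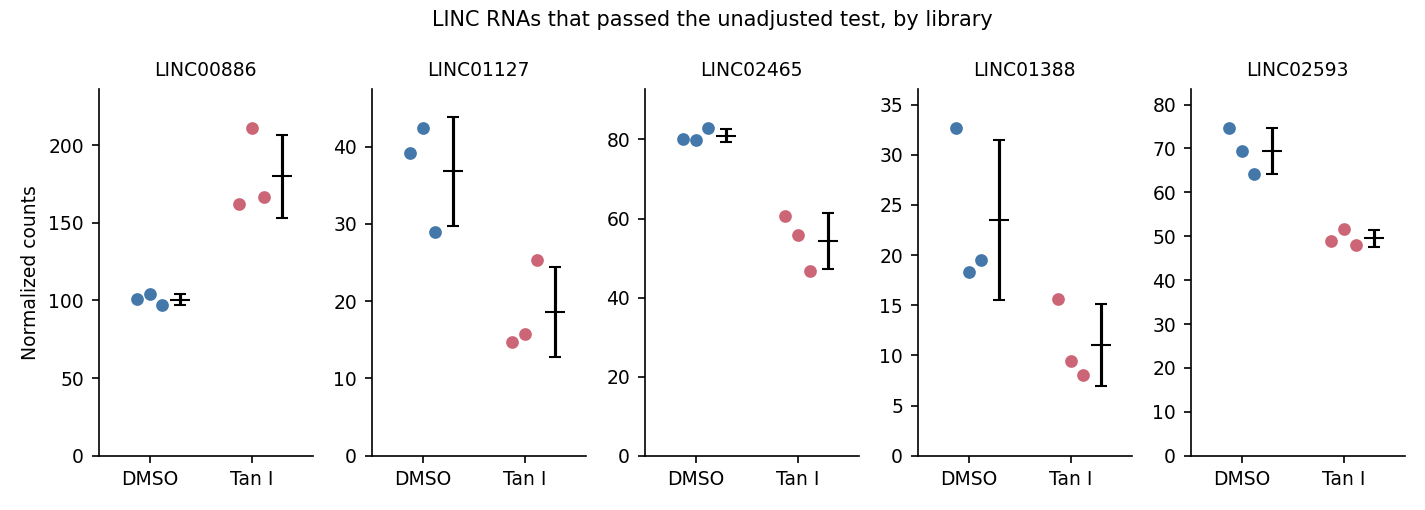
Normalized counts of the 5 LINC RNAs that passed the unadjusted test, with 1 point per library in replicate order and the mean ± SD of 3 libraries beside the points. LINC00886 is higher in all 3 Tan I libraries, from 162 to 211 against 96.9 to 104 in DMSO, and the other 4 are lower in all 3.

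LINC00886 (ENSG00000240875) was the LINC RNA with the smallest p. Its normalized counts were 101, 104 and 96.9 in DMSO and 162, 211 and 167 in Tan I. The 3 DMSO libraries lay close together and every Tan I library was well above them. The mean went from 101 ± 3.57 (SD, n = 3) to 180 ± 26.8 (SD, n = 3), a log2 fold change of 0.82 ± 0.18 (SE, 95% interval 0.41 to 1.23). The unadjusted limma p was 0.00190, the adjusted limma p was 0.999 and the exact permutation p was 0.1. By DESeq2 the unadjusted p was 7.42e-05 and the adjusted p was 0.0547. It passed the unadjusted thresholds under each of 17 alternatives, with log2 fold changes from 0.71 to 0.89. The values rested on 108, 108 and 124 reads in DMSO and 166, 200 and 125 in Tan I.

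LINC00886 lies at chr3:156747343-156817062 on the minus strand, with 3 exons in its main transcript and 3961 bp of joined exons, and its level was 35.4 normalized counts per kilobase. The nearest protein-coding start, that of LEKR1 on the opposite strand, is 8419 bp away. LEKR1 had 33.6, 32.7 and 30.5 normalized counts in the DMSO libraries and 53.8, 46.4 and 49.3 in Tan I. It too was higher in all 3 Tan I libraries, with a log2 fold change of 0.61 ± 0.23 (SE, limma unadjusted p = 0.0291, adjusted p = 0.999), but it missed the unadjusted threshold in 7 of 16 alternatives, among them the removal of any 1 library (limma unadjusted p from 0.0509 to 0.0924).

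Within 500 kb of its start, a window chosen after the values were seen, 9 other genes were tested and 6 had higher means in Tan I on the log2 scale, with a median log2 fold change of 0.28. The other gene of the 9 that passed the unadjusted test was TIPARP, a mono-ADP-ribosyltransferase gene and a well known target of the aryl hydrocarbon receptor, the factor that binds GCGTG with its partner ARNT. Its normalized counts were 3068, 2325 and 2976 in DMSO and 4343, 3933 and 3537 in Tan I, with no overlap between the groups. The log2 fold change was 0.50 ± 0.15 (SE, limma unadjusted p = 0.0105, adjusted p = 0.999). After rescaling each library to the same total it missed the unadjusted threshold, at 0.44 (limma unadjusted p = 0.0612). Its adjusted p was 0.000296 with the first component's score as a covariate in limma and 0.609 by DESeq2. That score was computed from the same libraries and genes, so p-values of any fit with it may be too small. TIPARP starts 143.8 kb from LINC00886 on the opposite strand. SSR3, a subunit of the translocon-associated complex, had a log2 fold change of 0.28, CCNL1 (cyclin L1) one of −0.0003 and TIPARP-AS1 one of −0.33, and none of them passed.

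**Figure D4:**
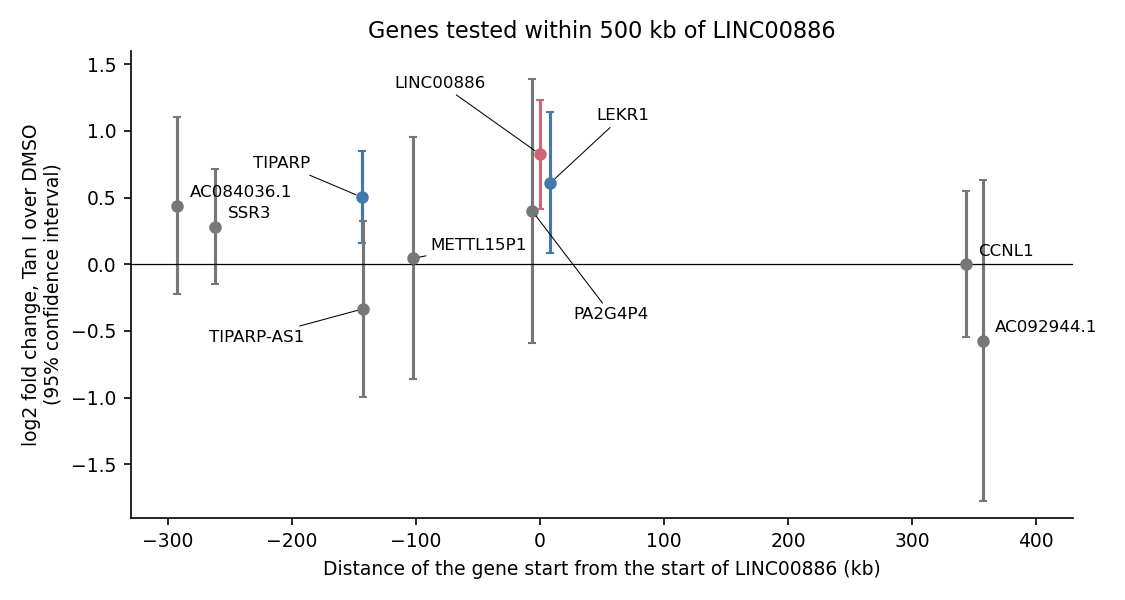
Log2 fold change and 95% confidence interval (vertical axis, Tan I over DMSO) for LINC00886 (red) and the 9 other genes tested within 500 kb, placed by the distance of their start from its start in kb. TIPARP and LEKR1 (blue) are the neighbors whose intervals lie above 0.

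LINC01127 (ENSG00000281162, chr2:101962052-101987167, plus strand) was lower in Tan I. Its normalized counts were 39.2, 42.4 and 28.9 in DMSO and 14.7, 15.8 and 25.3 in Tan I. Tan I 3 stood nearer to DMSO than the other 2 treated libraries did. The log2 fold change was −0.97 ± 0.33 (SE, limma unadjusted p = 0.0207), and it passed in 12 of 16 alternatives. It missed without DMSO 1, DMSO 2, Tan I 1 or Tan I 2 (limma unadjusted p from 0.0555 to 0.0679). The nearest coding gene, 29908 bp away, is IL1R2, which encodes the decoy receptor for interleukin 1 and was not among the genes tested. None of the 6 other genes tested within 500 kb passed.

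LINC02465 (ENSG00000249618, chr4:129771596-129975329, plus strand) lies in a gene desert, with the nearest coding start 677996 bp away and no other gene tested within 500 kb. It had 80.2, 79.9 and 82.8 normalized counts in the DMSO libraries and 60.6, 55.9 and 46.7 in Tan I. The DMSO libraries hardly varied and every Tan I library was lower. The log2 fold change was −0.57 ± 0.20 (SE, limma unadjusted p = 0.0241), and it passed in 12 of 17 alternatives. It missed without DMSO 1, DMSO 3, Tan I 2 or Tan I 3 (limma unadjusted p from 0.0551 to 0.0780).

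LINC01388 (ENSG00000231808, chr9:112713-113754, minus strand) is a short gene with 416 bp of exons near the end of the short arm, 4663 bp from FOXD4. This region has near-identical copies elsewhere in the genome, and reads mapping to several places were removed by the authors, so its counts are uncertain. It had 32.6, 18.3 and 19.5 normalized counts in the DMSO libraries and 15.6, 9.49 and 8.0 in Tan I. These values rested on 6 to 35 reads, and the groups came close to each other. The log2 fold change was −1.03 ± 0.41 (SE, limma unadjusted p = 0.0376), and it passed in 11 of 16 alternatives. It missed without DMSO 1, DMSO 3, Tan I 2 or Tan I 3 (limma unadjusted p from 0.0670 to 0.157).

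LINC02593 (ENSG00000223764, chr1:916865-921016, minus strand) starts 2907 bp from SAMD11. It had 74.6, 69.3 and 64.1 normalized counts in the DMSO libraries and 48.9, 51.6 and 48.0 in Tan I. The groups were apart, but the log2 fold change of −0.48 ± 0.20 (SE) only just passed (limma unadjusted p = 0.0474), and it passed in 6 of 17 alternatives. Without any 1 library it missed (limma unadjusted p from 0.0826 to 0.153). Of the 46 other genes tested within 500 kb, 2 passed the unadjusted test, against 2.42% of all genes tested.

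The remaining 16 LINC RNAs whose groups did not overlap did not pass the unadjusted test. Their log2 fold changes ran from −0.89 for LINC01521 to 0.90 for LINC00996. LINC00996 had 7.46, 10.6 and 11.7 normalized counts in the DMSO libraries and 34.2, 13.7 and 14.7 in Tan I, so that Tan I 1 alone was far above the rest. LINC02506, at a higher mean, had 289, 250 and 304 in DMSO and 331, 329 and 365 in Tan I, with a log2 fold change of 0.28 ± 0.14 (SE, limma unadjusted p = 0.0804).

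A list of 19 LINC RNAs with reported roles, among them regulators of proliferation and RNAs with small reading frames, was written from general knowledge. Of these, 15 were in the table and 14 were tested, LINC00324 lying below the mean of 10. By the unadjusted test 0 of the 14 passed in either direction, against 2.42% of all genes tested. At that share a list of 14 genes may well hold 0. Their median log2 fold change was −0.08, with 5 of 14 above 0. LINC00909 came closest, with 65.3, 108 and 63.3 normalized counts in the DMSO libraries and 51.8, 45.3 and 56.0 in Tan I. Its groups did not overlap, with a log2 fold change of −0.58 ± 0.27 (SE, limma unadjusted p = 0.0675). LINC00173, an RNA linked to granulocyte development, had 205, 222 and 250 in DMSO and 172, 237 and 156 in Tan I, and the groups overlapped, with a log2 fold change of −0.28 ± 0.20 (SE, limma unadjusted p = 0.200). LINC00665, reported to encode a micropeptide, had 51.3, 32.7 and 43.8 in DMSO and 76.2, 64.3 and 40.0 in Tan I, with a log2 fold change of 0.46 ± 0.32 (SE, limma unadjusted p = 0.186). Without Tan I 3 it passed, at 0.73 (limma unadjusted p = 0.0437). LINC00461, a neighbor of MEF2C, had 68.1, 218 and 96.1 in DMSO and 52.8, 67.4 and 147 in Tan I, where DMSO 2 and Tan I 3 were each the highest library of their group. Its log2 fold change was −0.48 ± 0.51 (SE, limma unadjusted p = 0.382). The other listed LINC RNAs tested, LINC00265, LINC00339, LINC00467, LINC00511, LINC00641, LINC00649, LINC00926, LINC00963, LINC01128 and LINC01138, had log2 fold changes from −0.41 to 0.17.

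For comparison, 28 long noncoding RNAs with names of their own were listed, of which 24 were tested. Their median log2 fold change was 0.03. By the unadjusted test 2 were higher in Tan I and 0 were lower, against 1.32% and 1.10% of all genes tested. LUCAT1, a stress-responsive RNA known as a target of NRF2, had 51.3, 39.5 and 35.9 normalized counts in the DMSO libraries and 117, 98.0 and 84.0 in Tan I, with a log2 fold change of 1.22 ± 0.24 (SE, limma unadjusted p = 0.00119, adjusted p = 0.999). By DESeq2 its adjusted p was 0.0347, and over its alternatives the adjusted p ran from 0.00553, with the first component's score as a covariate in limma, to 1. LINC-PINT, a p53-induced RNA reported to bind Polycomb repressive complex 2, had 198, 168 and 210 in DMSO and 210, 302 and 323 in Tan I, with a log2 fold change of 0.52 ± 0.20 (SE, limma unadjusted p = 0.0377). Its lowest Tan I library, Tan I 1, was level with the highest DMSO library, and without any 1 library other than Tan I 1 it missed the threshold (limma unadjusted p from 0.0538 to 0.124). The 3 with the highest mean, GAS5, NORAD and OIP5-AS1, had log2 fold changes of 0.07, 0.05 and 0.01.

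The machinery that can limit long noncoding RNAs was measured too. Of 18 subunits and adaptors of the nuclear exosome, which degrades some of them, 0 passed the unadjusted test, against 2.42% of all genes tested. Their log2 fold changes ran from −0.14 to 0.27 with a median of 0.08, and 13 of the 18 lay above 0. Their summed normalized counts ran from 34521 to 35810 in DMSO and from 36788 to 38046 in Tan I, without overlap. These sums were not taken as shares of the library totals, which differed as well. The totals ran from 23643626 to 26277954 normalized counts in DMSO and from 23750061 to 28675740 in Tan I. How often such sums separate for other lists of genes was not computed. The 3 with the highest mean were DIS3 (0.06), PABPN1 (0.22) and EXOSC8 (0.15), given as log2 fold changes. Of the 14 subunits of Integrator, which cleaves nascent noncoding transcripts, 0 passed, with a median of 0.05 and 10 of the 14 above 0. Their sums overlapped, at 23078 to 26054 in DMSO and 24479 to 26283 in Tan I. INTS1, INTS11 and INTS10 had −0.06, 0.09 and 0.10.

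Of the 224 LINC RNAs, 160 had a nearest protein-coding gene that was tested, and in 86 of these pairs both had log2 fold changes of the same sign. The same held for 8 of the 15 divergent pairs. The 160 pairs had 148 distinct neighbors, of which 9 (6.08%) passed the unadjusted test in either direction, against 2.42% of all genes tested, 5 of them higher and 4 lower in Tan I. LEKR1 was the only one of these 9 whose LINC RNA passed as well. The neighbors are all protein-coding, while the 2.42% covers genes of every type. The median mean was 659 normalized counts for the protein-coding genes tested and 332 for all genes tested. The share passing among protein-coding genes alone was not computed.

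The spread between libraries was larger for LINC RNAs than for all genes tested, but not than for genes of like mean level. The SD of log2(normalized count + 1) over the 6 libraries had a median of 0.36 for LINC RNAs and 0.28 for all genes tested. Among genes in the same range of mean level it was 0.35 for LINC RNAs and 0.39 for other genes. The median standard error of the log2 fold change was 0.32 for LINC RNAs and 0.22 for all genes tested.

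LINC02175 was among the 3 with the largest SD, at 1.31. It had 83.9, 16.4 and 50.8 normalized counts in the DMSO libraries and 76.2, 14.8 and 9.34 in Tan I, so that libraries of the same group differed more than the groups did. LINC02211 had 14.9, 5.78 and 17.2 in DMSO and 20.5, 9.49 and 0 in Tan I. LINC00638 had 22.4, 6.74 and 11.7 in DMSO and 20.5, 4.22 and 1.33 in Tan I. In all 3 of these RNAs DMSO 2 was the lowest DMSO library and Tan I 3 the lowest Tan I library. The 3 with the smallest SD, LINC01023, LINC01569 and LINC00926, had SDs of 0.09 to 0.10.

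**Figure D5:**
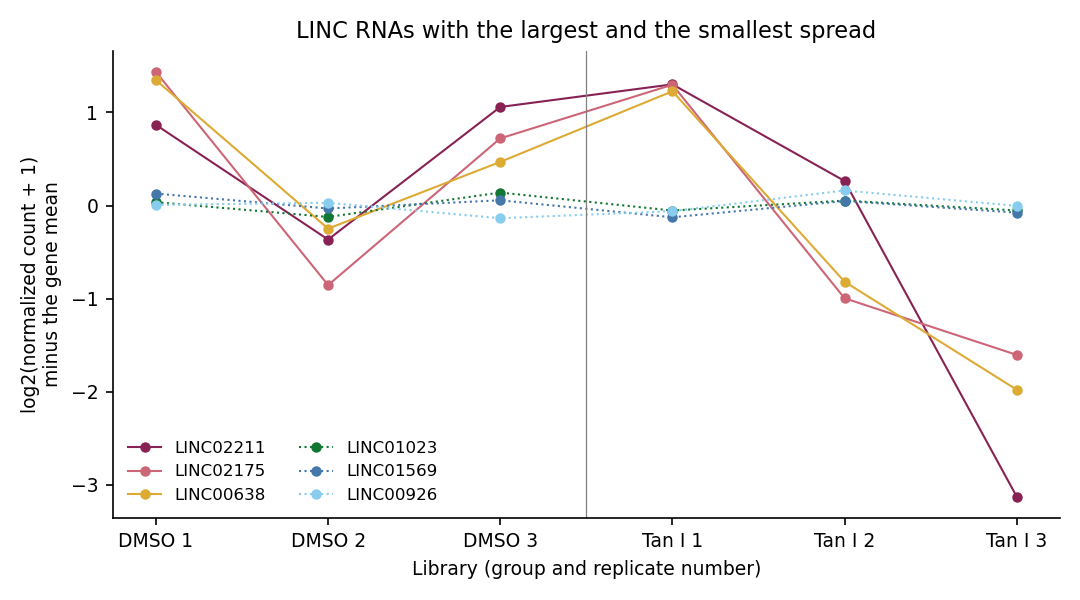
Log2(normalized count + 1) minus the mean of the gene (vertical axis) in each of the 6 libraries for the 3 LINC RNAs with the largest SD (solid lines) and the 3 with the smallest (dotted lines). The solid lines drop in DMSO 2 and fall again from Tan I 1 through Tan I 2 to Tan I 3, while the dotted lines stay near 0.

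DMSO 2 and Tan I 3 were the 2 lowest of the 6 libraries for 53 LINC RNAs (23.7%) and for 24.8% of all genes tested. They were the 2 highest for 34 LINC RNAs (15.2%) and for 26.5% of all genes tested. These shares were not matched for mean level. Among genes in the same range of mean level, the median correlation with the first component was −0.10 for LINC RNAs and −0.19 for other genes. It lay above 0 for 45.5% of these LINC RNAs and 45.2% of these other genes. The part of this gradient in the group differences was not tested beyond the fit with its score as a covariate, given among the alternatives.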

How the data were processed

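RNA-seq was performed in NB4 cells with DMSO or 10 μM Tan I. According to the study's methods, the authors mapped the read pairs with STAR (GRCh38), kept reads with a single location, counted them by gene in featureCounts and ran DESeq2. Versions, annotation release and strand setting are not given in the sources used here. The authors deposited 1 table of 18625 genes whose signal values are normalized counts, each being a read count over the size factor of its library. Every deposited value (100%) came to a whole number of reads within 0.01, which gave back the reads, with size factors from 0.750 to 1.28. The table also holds the authors' own comparison (fold change, standard error, test score and p-values), which was not used.

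The sample labels gave each library's group and replicate number. The table's columns are headed con and TanI with a number, and the con columns were taken as the DMSO libraries of the same number. Groups were compared with limma 3.58.1 (R 4.3.3) on log2(normalized count + 1), with eBayes following the mean-variance trend and treatment alone in the model. It was run on 16887 genes whose mean reached 10, leaving out 1738. Fold changes are on that scale, which understates the change of low genes. Adjusted p-values are Benjamini-Hochberg values over every gene tested. A gene passed the unadjusted test when p was 0.05 or less and the log2 fold change was 0.25 or more in size. The script was tested on simulated data.

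The members and lists were chosen with earlier results of these data known. Genes were named by a rule. It took LINC RNAs passing the unadjusted test, those passing after adjustment in limma, edgeR or DESeq2, the 10 highest means, the list with reported roles, the 3 on either side of the mean of 10, and the 3 with the largest and the smallest SD. For other lists it took genes passing the unadjusted test and the 3 highest means. Other genes were chosen after their values were seen. Positions came from GENCODE release 44 and promoters from RefSeq.

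Alternatives were pseudocounts of 0.1 and 10, no filter, a minimum mean of 50, quantile normalization, equal library totals, a fit that ignored the trend, edgeR 4.0.16 (quasi-likelihood test, TMM) and DESeq2 1.42.0 on recovered reads, a block for replicate number, the first principal component as a covariate, and each library left out. Other alternatives were the share of counts over all LINC rows or without the highest, and motifs on the gene strand only.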

Additional observations from a re-analysis of the deposited data

Results flagged for a closer look

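Outside the comparisons above, 5 of the 55 LINC RNAs below a mean of 10 (9.09%) had higher normalized counts in every Tan I library than in every DMSO library, and another 5 were lower in every one. Over all genes tested, 3.92% lay above and 3.97% below. Those genes had means of at least 10, and the shares were not computed for other genes below that mean. The 5 that lay above had mean normalized counts in Tan I of 13.8 for LINC02561, 11.3 for LINC01424, 10.7 for LINC02685, 9.65 for LINC01979 and 8.57 for LINC00377. LINC02561 rested on 5, 6 and 6 reads in DMSO and 12, 13 and 12 in Tan I. A mean below 10 kept these rows out of the main test.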

How the results depend on the processing

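The count of LINC RNAs passing the unadjusted test, 5 in the main analysis (1 higher, 4 lower), is given here with the share of all genes passing in the same fit, 2.42% in the main analysis. It was 2 with a mean of at least 50 (108 RNAs tested, 2.55%), 9 after rescaling to the same total (1 higher, 8 lower, 2.59%), 11 without the trend (6 higher, 5 lower, 3.29%), 3 with DESeq2 (2.49%), 4 with edgeR (2.42%), 5 after quantile normalization (2 higher, 3 lower, 2.22%) and 7 of 279 with no filter (2.39%). With the score on the first principal component added as a covariate it was 27 (11 higher, 16 lower), and 8.86% of all genes tested passed. In that fit 4 of 224 LINC RNAs passed after adjustment, LINC00426, LINC00461, LINC01088 and LINC00886, against 0 in each other alternative. Of all 16887 genes tested, 195 passed after adjustment in the same fit. The adjusted p of LINC00886 there was 0.0202 (limma). The score was computed from the same libraries and genes, so p-values of that fit may be too small. In the main fit LINC00426, LINC00461 and LINC01088 had log2 fold changes of −0.30, −0.48 and −0.38 and did not pass. Without DMSO 2 and without the covariate these were −0.16, −0.005 and −0.20 (limma unadjusted p = 0.309, 0.992 and 0.273). Leaving out 1 library gave a count of passing LINC RNAs from 1 to 19, with 1 without DMSO 1 (1.07%), 8 without DMSO 2 (2.76%), 2 without DMSO 3 (1.19%), 19 without Tan I 1 (8.86%), 1 without Tan I 2 (0.947%) and 4 without Tan I 3 (1.605%). The count with groups apart, 21 in the main analysis, was 9 with a mean of at least 50, 14 after quantile normalization and 30 to 59 without 1 library. The matching shares of all genes are not given for these settings. With a library left out, fewer values have to separate, so more genes of any kind lie apart. The cause of these changes was not tested, except that fewer genes or libraries entered where the filter was raised or a library left out. The median log2 fold change, −0.04, ran to −0.10 after rescaling to the same total, where that of all genes tested went to −0.06, and was 0.004 after quantile normalization and 0.02 without Tan I 3. The fold change of LINC00926 turned to −0.013 after quantile normalization. Same-numbered libraries deviated from their group means with correlations of 0.751, −0.0881 and −0.451, and DMSO 2 with Tan I 3 gave 0.758. The gradient between libraries enters these values, so they cannot show whether the numbers pair the libraries. The replicate block gave 3 passing LINC RNAs (2.06%). Without LINC00926 the share of counts was 0.107% in DMSO and 0.101% in Tan I. Motifs on the gene strand only were found in 16.3% (GCGTG), 14.7% (TGACNNNGC), 14.7% (GAGGAA), 7.75% (TGTGGT), 5.43% (TTGCNNAA) and 6.20% (TATAAA) of the 129 promoters, and in 21.7%, 7.0%, 15.1%, 6.86%, 5.47% and 7.71% of all promoters. The 108 to 200 reads a library for LINC00886 and 6 to 35 for LINC01388 limited the precision.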

Other observations

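LINC01089 starts 103 bp from SETD1B, a histone H3 lysine 4 methyltransferase gene on the opposite strand, and the members of this pair had log2 fold changes of opposite sign. LINC01089 had 160, 216 and 177 normalized counts in DMSO and 200, 281 and 249 in Tan I, a log2 fold change of 0.40 ± 0.19 (SE, limma unadjusted p = 0.0752). SETD1B, with a mean of 173, had a log2 fold change of −0.59 ± 0.19 (SE, limma unadjusted p = 0.0146) and was lower in every Tan I library than in every DMSO library. Exons of LINC01089 overlap those of RHOF, so its counts are uncertain.

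ZFP36L2, which encodes an RNA-binding protein that promotes decay of AU-rich messenger RNAs, was the nearest coding gene of LINC02580, LINC01819 and LINC01126, at 9360, 185944 and 604 bp. It passed the unadjusted test with a log2 fold change of −0.57 ± 0.17 (SE, limma unadjusted p = 0.0105). The log2 fold changes of the LINC RNAs around it were 0.40, −0.45 and −0.08, and none of them passed. These genes were chosen after their values were seen.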
